A study of Mus musculus with 10 samples.

Results

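The genes examined were Egr2, Pparg, Myc, Bhlhe40 and Rxra, 5 of the 21755 protein-coding genes on the autosomes and X chromosome of GENCODE M21, which encode transcription factors of the macrophage response to interleukin-4 (IL-4). A chromatin loop was counted for a gene when either of its anchors, a 10 kb bin, overlapped the 100 kb on either side of the transcription start site (TSS). This gave 159 of 53424 loops (M0[CTR]), 246 of 58260 (M2[IL-4]), 226 of 67728 (M2p[pIL-4]), 164 of 55012 (IFNG) and 225 of 67000 (pIL-4 + IFNG), the order of the lists used throughout, and no loop was counted for more than 1 of the genes.

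The loops came from Hi-C, a method that ligates and sequences DNA segments lying close together in the nucleus, on bone marrow-derived macrophages. All groups were wild-type macrophages from female C57BL/6 mice aged 2 to 3 months, grown in M-CSF at 20 ng/ml and treated from day 6. M0[CTR] cells were left untreated, M2[IL-4] cells had IL-4 at 20 ng/ml for 24 h, and M2p[pIL-4] cells had the same IL-4 followed by washing and 24 h of rest. IFNG cells had interferon gamma at 20 ng/ml for 3 h without earlier IL-4, and pIL-4 + IFNG cells had it after IL-4, washing and rest. Each group had 2 replicates, but its loops stood in 1 list, so that no difference given here has a replicate check and none was tested. Hi-C counts carry no gene expression, so the macrophage label was not checked against markers.

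IL-4 binds its receptor and activates JAK kinases and the transcription factor STAT6, which switches on a second layer of transcription factors. EGR2 is a zinc finger factor of that layer. PPARG is a nuclear receptor for fatty acid ligands that binds DNA as a heterodimer with RXRA, the partner of many nuclear receptors. MYC, paired with MAX, and BHLHE40 are basic helix-loop-helix proteins that bind the E-box, MYC mostly as an activator of growth genes and BHLHE40 mostly as a repressor. Chromatin loops can bring enhancers and promoters together, and many end at sites of CTCF. This DNA-binding protein halts cohesin when its motif faces the interior of the loop.

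The CTCF motifs found at anchors called in all lists are shown first, since CTCF is known for its place at loop ends. The CTCF core consensus, a motif of 14 bases searched by exact match on both strands of GRCm38, was found in 4 of the 30 anchor bins of the loops near these genes that all 5 lists called in the same bins (13.3%). The share was 12.8% of the 13527 anchors of all such loops, 5.22% of the anchors of bin pairs called in 1 list, and 2.47% of all sequenced bins, so that the anchors near these genes held the motif about as often as other anchors of their kind. Each match is printed with flanks in lower case and the match in capitals, read along its own strand.
Egr2, chr10:67766343-67766372, minus strand: cctttcttCCACTAGATGGCGCtagtcggc
Pparg, chr6:115227714-115227743, plus strand: acaactctCCAGTAGGTGGCAGcaggaact
Myc, chr15:61983423-61983452, plus strand: ctctgtggCCAGTAGAGGGCACacttactt
Rxra, chr2:27765107-27765136, minus strand: aaatatctCCAGCAGGGGGCAGtgctaccc
The Egr2 match lay in the bin 230 kb downstream of the TSS bin and read back towards the gene. The Pparg match lay in the bin 140 kb upstream and read towards the gene. The Myc match lay in the TSS bin itself, at -1960 bases from the TSS, and read downstream. The Rxra match lay in the bin 90 kb downstream, past the end of the gene, and read back towards it. No match was found in the anchors near Bhlhe40 that all lists called, and a match is a description of letters, not a measured binding site.

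The 5 genes differed in how many loops surrounded them and in which direction these ran. Egr2 had a mean of 63.6 loops over the 5 lists, above 95.5% of protein-coding genes, Bhlhe40 44.6 (88.9%), Myc 39.6 (86.1%), Rxra 29.4 (78.8%) and Pparg 26.8 (76.5%), against a median of 7.4. All partner bins of Bhlhe40 outside its window lay upstream, in every list. Those of Myc lay downstream but for 1 loop in M2[IL-4], and its loops were long, with median spans of 785 to 830 kb and median counts of 10 to 12 contacts. The other genes had median spans of 160 to 280 kb and median counts of 24.5 to 34.0 contacts. Pparg and Rxra had partners on both sides, and Egr2 mostly downstream.

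Loop numbers are given as deposited and then relative to list length, since the lists held between 53424 and 67728 loops. Egr2 had 48 loops (M0[CTR]), 81 (M2[IL-4]), 64 (M2p[pIL-4]), 48 (IFNG) and 77 (pIL-4 + IFNG). The 3 lists of cells that had seen IL-4 all stood above the other two, also per 10000 loops of a list (8.99, 13.9, 9.45, 8.73 and 11.5). Pparg had 20, 25, 34, 27 and 28 loops in the same order, highest after washout. Rxra, which encodes the partner of PPARG, had 28, 35, 31, 18 and 35, lowest in IFNG. Among the E-box factors, Myc had 29, 52, 42, 34 and 41 loops and Bhlhe40 had 34, 53, 55, 37 and 44. Per 10000 loops of a list, Myc had 5.43, 8.93, 6.20, 6.18 and 6.12 and Bhlhe40 had 6.36, 9.10, 8.12, 6.73 and 6.57. On that scale M2[IL-4] was the highest for both, and pIL-4 + IFNG lay slightly below IFNG.

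**Figure D1:**
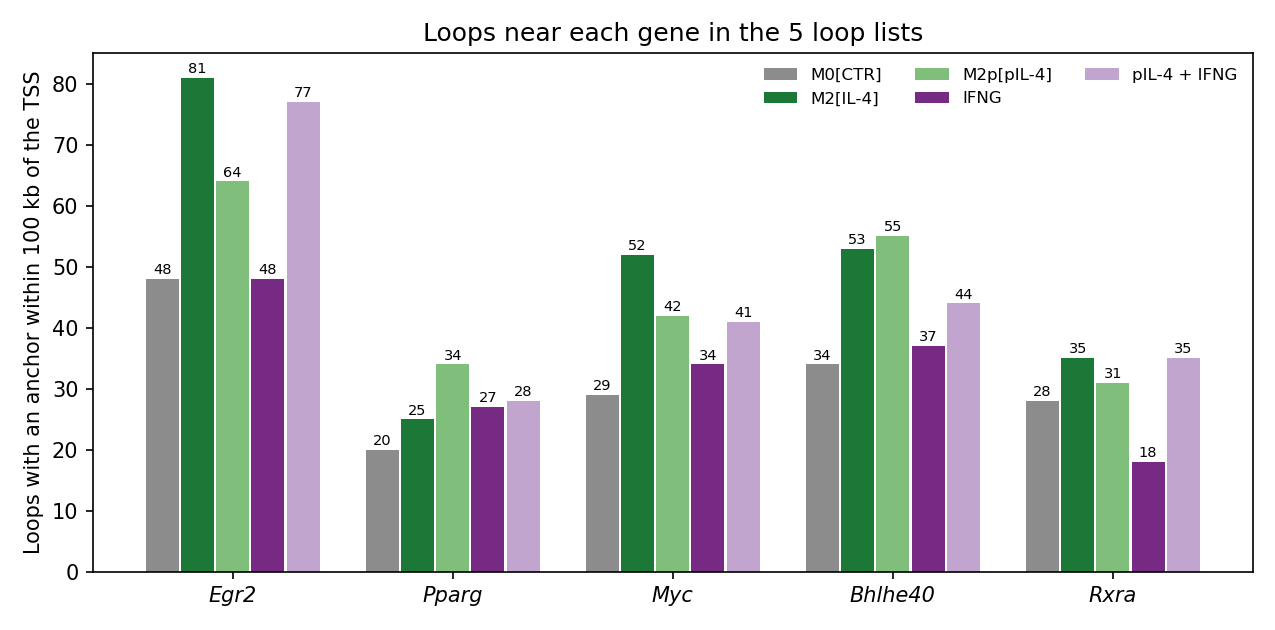
Loops with an anchor within 100 kb of the TSS (y axis, number of loops as deposited) for each gene (x axis), with 1 bar per loop list and the number above it; there is no error bar because each group has 1 list. Egr2 ranged from 48 to 81 loops and Myc from 29 to 52, with the highest bar in M2[IL-4] for both.

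The first comparison asked whether loops near these genes differed after 24 h of IL-4. Egr2 and Myc each had more than 1.5 times as many loops in M2[IL-4] as in M0[CTR] relative to list length, and all 5 genes had a ratio above 1, although that of Pparg was below it when touching bin pairs were merged and with a 25 kb window, and that of Rxra with a 25 kb window. The log2 ratio, with a pseudocount of 1, was 0.62 at Egr2, 0.70 at Myc, 0.50 at Bhlhe40, 0.19 at Rxra and 0.18 at Pparg. Over the 12249 genes with a mean of at least 5 loops, 8.92% had at least 1.5-fold more loops and 7.82% at least 1.5-fold fewer. Beside that background, 2 of the 5 members passed upwards and 0 downwards. The members were chosen with earlier results of these data known. Egr2 stood above 92.1% of these genes and Myc above 93.4%, both within the middle 90% of all genes. Without the pseudocount, the ratio was 1.55 (95% interval 1.07 to 2.26) for Egr2, 1.64 (1.02 to 2.69) for Myc and 1.43 (0.912 to 2.27) for Bhlhe40. Summed over the genes it was 1.42 (1.16 to 1.74). These intervals are exact and cover counting error alone, and since neighbouring bins often belong to the same contact, loops are not independent counts.

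Both calls rested on the way loops were counted. The Egr2 log2 ratio passed under the 1.5-fold line of 0.585 with a window of 50 kb (0.21) or 25 kb (0.19), without pairs of adjacent bins (0.56) and with loops of at least 20 contacts alone (0.39). The Myc ratio did so with a 200 kb window (0.55) and when touching bin pairs were merged (0.38). Merging left 14 loops (M0[CTR]) and 24 (M2[IL-4]) at Egr2, 23 and 33 at Myc, and 9 and 18 at Bhlhe40, whose log2 ratio was then 0.81. Bhlhe40 also exceeded the line in 5 other settings, among them a 200 kb window (0.63) and no scaling (0.63), and merging put Rxra past it as well, with 5 and 13 loops and a log2 ratio of 1.10.

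After washout, none of the 5 genes passed 1.5-fold against M0[CTR], where 7.24% of genes had more loops and 5.14% fewer. The log2 ratio was 0.40 at Pparg, 0.34 at Bhlhe40, 0.18 at Myc, 0.07 at Egr2 and -0.20 at Rxra. Pparg and Bhlhe40 were past 1.5-fold with no scaling by list length (0.74 and 0.68) and with scaling by contacts at pairs in all 5 lists (0.69 and 0.63), Pparg with a 50 kb window (0.59), and Bhlhe40 with loops of at least 20 contacts (0.63) and with touching pairs merged (0.59). Merging touching bin pairs also turned Pparg to -0.48 and Rxra to 0.62. Set against M2[IL-4] directly, where 7.94% of genes passed upwards and 5.94% downwards, none of the members passed either. Egr2 came closest, at -0.55, and Myc followed at -0.52, with 6.83% and 7.85% of genes below them. Egr2 passed with a 200 kb window (-0.75) and Myc with a 50 kb window (-0.59) or a 25 kb window (-0.72). Bhlhe40 also passed downwards with a 25 kb window, with 24 loops in M2[IL-4] and 18 in M2p[pIL-4]. Summed over the 5 genes, M2p[pIL-4] had 0.79 times the loops of M2[IL-4] relative to list length (0.657 to 0.951). This gap was narrower without scaling, at 226 loops (M2p[pIL-4]) and 246 (M2[IL-4]). With all lists cut to the same length the numbers were 187 and 234.

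In the IFNG list Egr2 had 48 loops, the same number as in M0[CTR], but only 22 bin pairs were called in both. Rxra alone of the 5 genes passed 1.5-fold, with 18 loops against 28 and a log2 ratio of -0.65. Its 95% counting interval of the ratio, 0.325 to 1.17, included 1. Of all genes, 10.2% had at least 1.5-fold more loops and 8.49% at least 1.5-fold fewer. With a 50 kb window Pparg also passed, narrowly and upwards, with 10 loops (M0[CTR]) and 16 (IFNG). The Rxra difference turned its direction when touching bin pairs were merged, with 5 loops in M0[CTR], 7 in IFNG and a log2 ratio of 0.37. In pIL-4 + IFNG, Rxra had 35 loops and exceeded the IFNG list 1.60-fold (0.88 to 2.99), a log2 ratio of 0.64 where 7.36% of genes passed upwards and 4.91% downwards. Merging lowered that ratio to 0.38, and with no scaling Egr2 passed in this comparison too (0.67). No gene of the 5 passed between pIL-4 + IFNG and M2p[pIL-4] (Rxra did with a 25 kb window, at -0.66), where 8.18% of genes had more loops and 6.09% fewer. Comparisons with M0[CTR] share that list, and those with IFNG or M2p[pIL-4] share theirs, so they are not independent of each other.

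**Figure D2:**
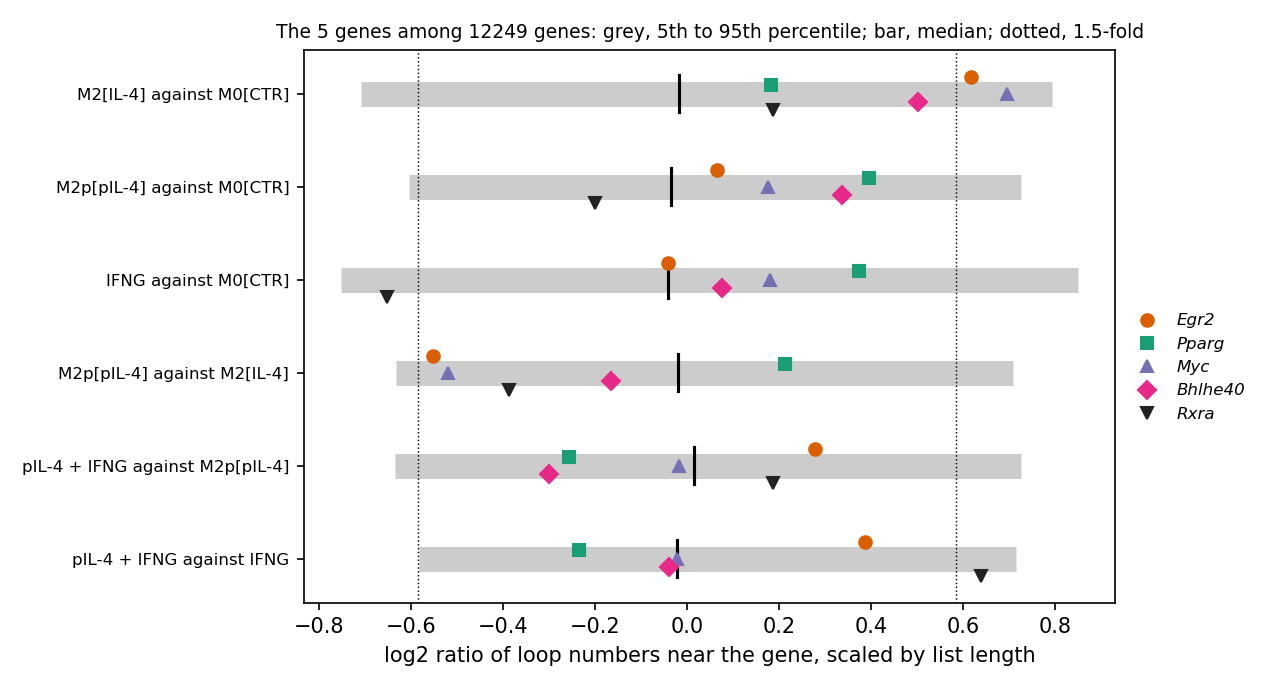
The log2 ratio of loop numbers near a gene, scaled by list length (x axis), for 6 pairs of lists (y axis). Symbols are the 5 genes, the grey bar spans the 5th to 95th percentile of 12249 genes, the black tick is their median and the dotted lines mark 1.5-fold. Every member lies inside the grey bars, also in M2[IL-4] against M0[CTR], where Myc is at 0.70 and the 95th percentile at 0.79.

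At Egr2 a stretch downstream of the gene had more loops in the IL-4-exposed lists. The gene itself spans chr10:67535475-67542188, and the bins 30 to 110 kb downstream of its TSS bin, a stretch picked after its values were seen, overlap long noncoding RNA genes (4930563J15Rik, Gm32364) or no gene. Loops with an anchor there numbered 3 (M0[CTR]), 20 (M2[IL-4]), 21 (M2p[pIL-4]), 11 (IFNG) and 24 (pIL-4 + IFNG). All 3 IL-4-exposed lists were at 20 or more, the IFNG list lay between them and M0[CTR], and the loops near Egr2 without an anchor there numbered 45, 61, 43, 37 and 53. M2[IL-4] thus also had more loops than M0[CTR] outside the stretch, for example 6 against 1 at the bin 70 kb upstream and 8 against 4 at the bin 20 kb upstream. The contacts of the downstream loops summed to 113, 1481, 1176, 469 and 1430. Pairs of adjacent bins numbered 0, 4, 1, 0 and 3 near Egr2. The pair of neighbouring bins at 80 and 90 kb, chr10:67610001-67620000 and chr10:67620001-67630000, had 233 contacts (M2[IL-4], Poisson interval 204 to 265), 221 (M2p[pIL-4]) and 216 (pIL-4 + IFNG), and was called in neither other list. A pair that a list does not call has no count in it, so these values have no floor in M0[CTR] or IFNG.

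**Figure D3:**
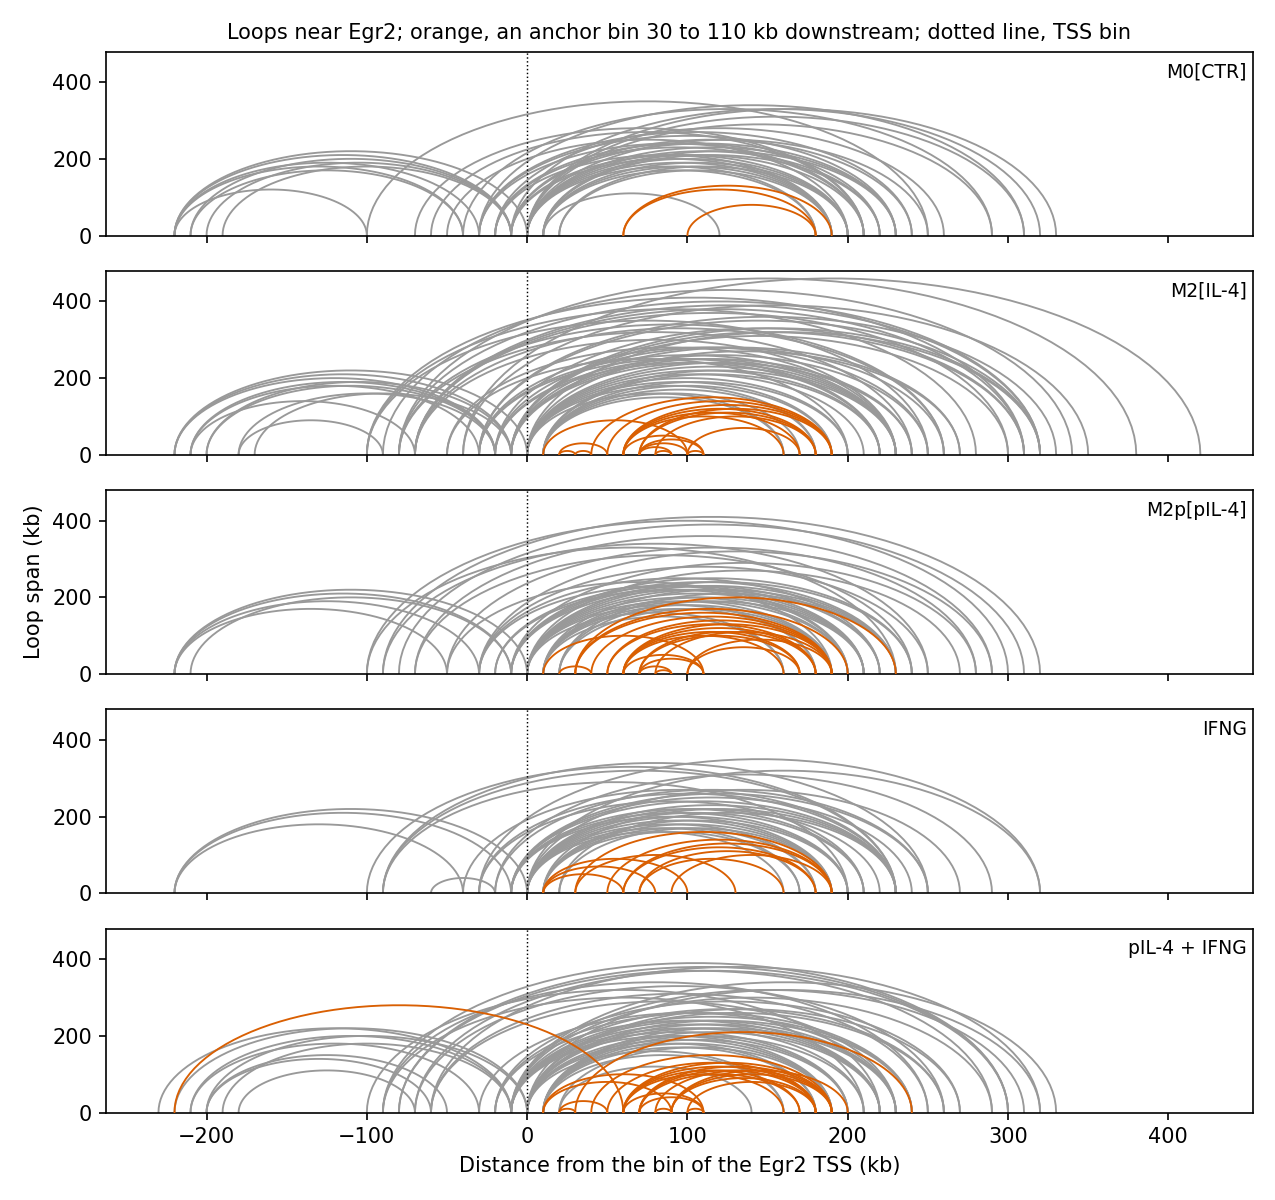
Each arc joins the 2 anchor bins of a loop near Egr2 (x axis, distance of the bin from the TSS bin in kb, downstream to the right), and its height is the span in kb; panels are the 5 loop lists. Orange arcs have an anchor 30 to 110 kb downstream and number 3 (M0[CTR]), 20 (M2[IL-4]), 21 (M2p[pIL-4]), 11 (IFNG) and 24 (pIL-4 + IFNG).

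Bin pairs were also sorted by the lists that shared them. Near Egr2, 17 bin pairs were called in exactly 3 lists, and 8 of these (47.1%) were in the 3 IL-4-exposed lists and absent from M0[CTR] and IFNG. Over all loops the share was 14.5% of 15326 bin pairs. For Bhlhe40 it was 3 of 11, and for each of Pparg, Myc and Rxra it was 1 pair, of 4, 4 and 6. Among the Egr2 pairs were the ones from the bin at 60 kb to those at 110 kb (63, 64 and 63 contacts in the 3 IL-4-exposed lists, in their order), 160 kb (38, 58 and 38) and 170 kb (34, 47 and 34). The share near Egr2 was a description chosen after the values had been seen, and neighbouring pairs are not independent.

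The Egr2 promoter bin itself anchored a similar number of loops in every list, but not all to the same partners. The bin chr10:67530001-67540000 anchored 11 loops (M0[CTR]), 11 (M2[IL-4]), 10 (M2p[pIL-4]), 11 (IFNG) and 12 (pIL-4 + IFNG). Of its 18 partner bins 6 were called in all lists and 7 in a single list, among them the bins at 250, 290, 310 and 330 kb, which were called in M0[CTR] alone. Its strongest partner lay 190 kb downstream, chr10:67720001-67730000, where no gene is annotated, with 67 contacts (M0[CTR], 51.9 to 85.1), 55 (M2[IL-4], 41.4 to 71.6), 56 (M2p[pIL-4], 42.3 to 72.7), 71 (IFNG, 55.5 to 89.6) and 77 (pIL-4 + IFNG, 60.8 to 96.2). The counting intervals of all lists overlapped. Relative to span it was the strongest loop near Egr2, at 2.66 times the median count of loops of the same span in pIL-4 + IFNG. The bin next to the promoter bin, chr10:67540001-67550000, overlaps Egr2 and holds the TSS of Ado. It had 53, 52, 57, 42 and 43 contacts with the same partner in the order of the lists. The bin 230 kb downstream, which holds the CTCF match printed above, had 49, 48, 49, 46 and 41 contacts with the promoter bin. The bin at 240 kb was called with the promoter in the 3 IL-4-exposed lists alone, at 24, 27 and 23 contacts.

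Of the 10 RefSeq promoter entries of the members, 5 belonged to Egr2, 3 to Pparg and 2 to Rxra, and Myc and Bhlhe40 had none. The Egr2 entry nearest the annotated TSS is shown because its promoter bin had 6 partner bins called in all 5 lists, against 2 for Bhlhe40, 1 for Myc and 0 for Pparg and Rxra. Its 250 bases before the RefSeq start (GRCm38.p6, chr10:67535249-67535498, plus strand) hold 1 E-box, CACGTG, in capitals, the sequence that MYC with MAX and BHLHE40 recognise.
Egr2 promoter: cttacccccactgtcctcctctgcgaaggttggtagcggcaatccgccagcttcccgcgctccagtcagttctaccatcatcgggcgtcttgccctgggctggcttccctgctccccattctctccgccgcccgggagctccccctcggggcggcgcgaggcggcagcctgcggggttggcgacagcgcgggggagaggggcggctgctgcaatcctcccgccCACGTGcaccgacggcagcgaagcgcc
An E-box stood in 7.15% of 32851 promoters of 300 bases. None of the other entries of Egr2, Pparg and Rxra held one. The STAT6 motif TTCNNNNGAA (6.95% of promoters), the EGR motif GCGTGGGCG (0.612%) and a pair of AGGTCA motifs with 1 base between them, the element of PPARG and RXRA dimers (0.0396%), searched on both strands, had no match in the 10 entries. The single AGGTCA motif, in 16.3% of promoters, was found in 2 of the Pparg entries and 1 of the Rxra entries.

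At Bhlhe40 the contacts of the shared loops themselves were higher in the lists of IL-4-treated cells. Bhlhe40 (chr6:108660629-108666925) looped upstream into the body of Itpr1, which encodes an endoplasmic reticulum calcium channel. The 12 bin pairs called near it in all lists held 323 contacts (M0[CTR]), 411 (M2[IL-4]), 412 (M2p[pIL-4]), 353 (IFNG) and 392 (pIL-4 + IFNG). Relative to all contacts at bin pairs shared by the lists, this was 1.27 times M0[CTR] in M2[IL-4] (1.10 to 1.48), 1.23 times in M2p[pIL-4] (1.06 to 1.43), 1.06 times in IFNG (0.911 to 1.24) and 1.19 times in pIL-4 + IFNG (1.02 to 1.38). The intervals of the IL-4-exposed lists lay above 1 and that of IFNG included it, while all 4 intervals overlapped one another. The one with the highest count relative to span in any single list, from the Itpr1 bin at 230 kb upstream to the bin at 40 kb downstream of Bhlhe40, had 23 contacts (M0[CTR]), 33 (M2[IL-4]), 47 (M2p[pIL-4]), 25 (IFNG) and 43 (pIL-4 + IFNG). The pair from 250 kb upstream to 50 kb downstream had 19, 38, 40, 30 and 33. Near Bhlhe40, 21 bin pairs were called in both IFNG and pIL-4 + IFNG. There pIL-4 + IFNG had 1.09 times the contacts of IFNG (0.971 to 1.23), relative to all bin pairs called in both. The intervals cover counting error alone, and these ratios are not set beside those of all genes.

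**Figure D4:**
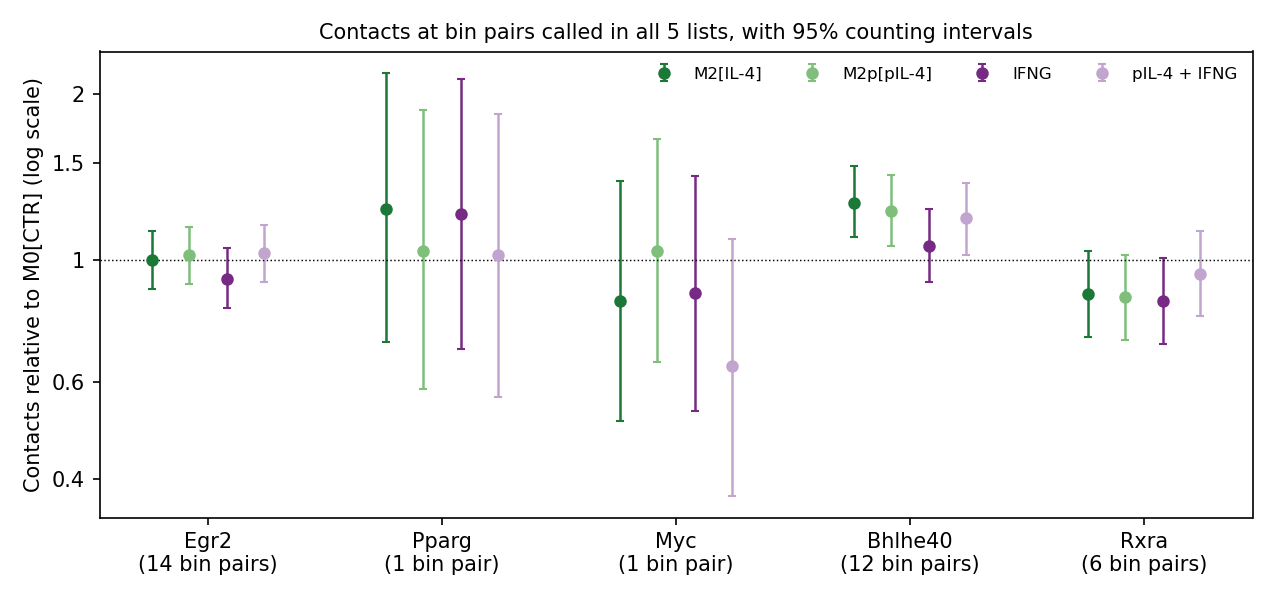
Contacts at the bin pairs called in all 5 lists, summed per gene and divided by M0[CTR] (y axis, log scale), for each gene with its number of bin pairs (x axis); colours are the lists and bars are exact 95% intervals that cover counting error. Bhlhe40 was at 1.27 in M2[IL-4] and 1.23 in M2p[pIL-4], and Egr2 was within 0.925 to 1.03 in all lists.

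The same measure was flat at Egr2. Its 14 shared bin pairs held 523 contacts (M0[CTR]), 523 (M2[IL-4]), 553 (M2p[pIL-4]), 498 (IFNG) and 550 (pIL-4 + IFNG), and each interval of the ratio included 1. Rxra had 6 such pairs with 264, 229, 234, 229 and 255 contacts, and ratios of 0.843 to 0.945 whose intervals also included 1. Pparg and Myc had 1 each. Summed over the 34 pairs of the 5 genes, the contacts were 1173, 1226, 1267, 1145 and 1248.

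The promoter bin of Bhlhe40 anchored 6 loops (M0[CTR]), 11 (M2[IL-4]), 6 (M2p[pIL-4]), 8 (IFNG) and 5 (pIL-4 + IFNG), the most during IL-4. A loop to the bin 40 kb downstream had 81 contacts (64.3 to 101) and was called in M2[IL-4] alone. The Itpr1 bin at 230 kb upstream was called with the promoter in all lists but M0[CTR], at 44, 38, 30 and 33 contacts. The bins at 240 and 220 kb upstream were called in all 5, at 25 to 42 and at 31 to 41 contacts.

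Myc looped downstream into Pvt1, the long noncoding RNA gene next to it, and into the sparsely annotated region beyond. Its promoter bin, chr15:61980001-61990000, anchored 6 loops (M0[CTR]), 11 (M2[IL-4]), 10 (M2p[pIL-4]), 8 (IFNG) and 14 (pIL-4 + IFNG), to 28 partner bins between 90 and 1360 kb downstream. M0[CTR] was the lowest of the lists. The Pvt1 bin at 270 kb was the one partner called in all lists, with 38 contacts (M0[CTR], 26.9 to 52.2), 32 (M2[IL-4], 21.9 to 45.2), 41 (M2p[pIL-4], 29.4 to 55.6), 34 (IFNG, 23.5 to 47.5) and 25 (pIL-4 + IFNG, 16.2 to 36.9). These intervals overlapped in every pair of lists. The next bin, at 280 kb, was called in all lists but M0[CTR], with 40, 35, 28 and 28 contacts, and so was the one at 340 kb, with 28, 30, 34 and 23. The bin at 260 kb was called in the 3 IL-4-exposed lists alone, with 28, 30 and 35. Of the 154 bin pairs near Myc, 78.6% were called in 1 list, against 55.5% of all bin pairs, and 0.649% in all 5, against 9.18%.

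**Figure D5:**
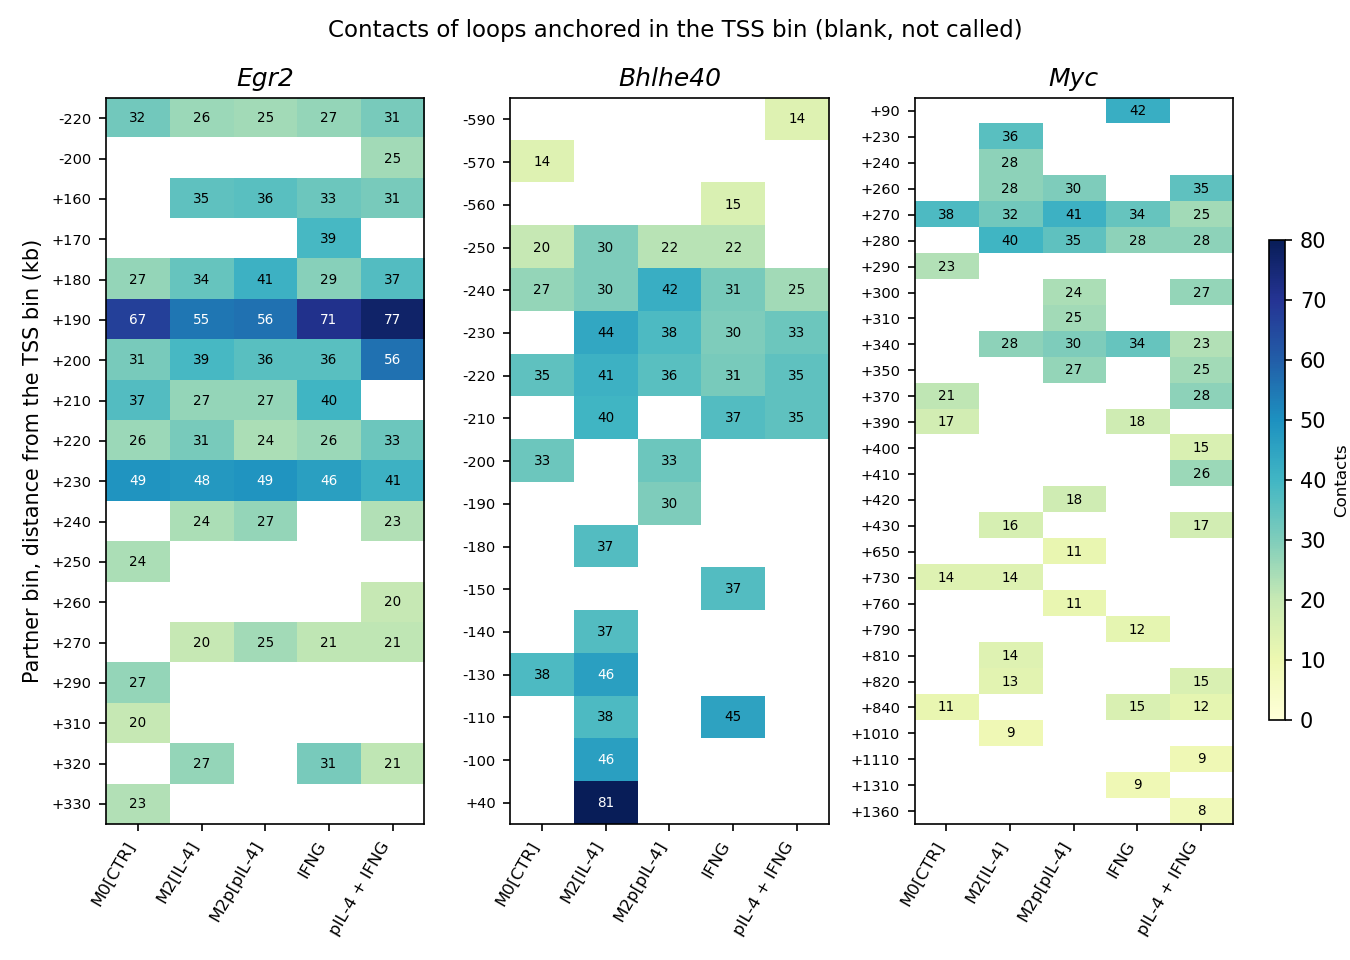
Contacts of each loop anchored in the TSS bin of Egr2, Bhlhe40 and Myc, by distance of the partner bin in kb (y axis, negative upstream) and loop list (x axis); the number and colour give the contacts, and a blank field was not called. Egr2 keeps the partners at 180, 190, 200, 220 and 230 kb in every list, and Myc keeps the one at 270 kb.

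Pparg (chr6:115360951-115490399) has 7 annotated starts, the last of them 79.02 kb inside the gene, and had the most loops in M2p[pIL-4]. The one bin pair near it called in all lists joined the bin 140 kb upstream, which holds the CTCF match printed above and lies in the neighbouring gene Syn2, to the bin 20 kb downstream of the TSS bin, inside Pparg. It had 25 contacts (M0[CTR], 16.2 to 36.9), 31 (M2[IL-4], 21.1 to 44.0), 27 (M2p[pIL-4], 17.8 to 39.3), 31 (IFNG, 21.1 to 44.0) and 26 (pIL-4 + IFNG, 17.0 to 38.1), with overlapping intervals. That upstream bin anchored 3 loops (M0[CTR]), 7 (M2[IL-4]), 8 (M2p[pIL-4]), 2 (IFNG) and 4 (pIL-4 + IFNG). The TSS bin anchored few loops, 2, 1, 5, 5 and 4. Its main partner lay 80 kb upstream in Syn2, with 52 contacts (M0[CTR]), 55 (M2p[pIL-4]), 56 (IFNG) and 54 (pIL-4 + IFNG), and was not called in M2[IL-4]. A loop of the TSS bin to the bin 30 kb upstream had 71 contacts (55.5 to 89.6) and was called in M2p[pIL-4] alone. Counting from every annotated start, Pparg had 33, 40, 57, 47 and 47 loops in the order of the lists, again the most after washout. M2p[pIL-4] was no longer the highest when touching bin pairs were merged (13, 10, 11, 16 and 13 loops) or when all lists were cut to the same length (20, 23, 20, 27 and 23).

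Rxra (chr2:27676440-27762957) has 6 annotated starts, the last of them 63.76 kb inside the gene. Its strongest loops spanned the first start rather than beginning there. The TSS bin, which holds the first start, anchored 3 loops (M0[CTR]), 1 (M2[IL-4]), 2 (M2p[pIL-4]) and 0 in both lists of IFNG-treated cells. The bin of the last start, 70 kb downstream, anchored 2, 4, 3, 2 and 5 in the order of the lists. The strongest loops joined the bin 120 kb upstream, chr2:27550001-27560000, where no gene is annotated, to bins at the 3' end of Rxra. To the bin at 80 kb these were 75 contacts (M0[CTR], 59.0 to 94.0), 47 (M2[IL-4], 34.5 to 62.5), 47 (M2p[pIL-4], 34.5 to 62.5), 44 (IFNG, 32.0 to 59.1) and 42 (pIL-4 + IFNG, 30.3 to 56.8). M0[CTR] was the highest, and its interval overlapped those of the other lists except for the one of pIL-4 + IFNG. To the next bin, at 90 kb, which holds the CTCF match, the counts were 51, 51, 60, 48 and 54, and the counting intervals of all lists overlapped.

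Loops were also sorted into classes that carry the study's names but not its criteria. The study took its classes from differential loops at 25 kb, whereas here a loop was placed by its presence or absence in the 10 kb lists, taking 2 loops as the same when both anchors lay within 25 kb. Transient loops were those in M2[IL-4] with no match in M0[CTR] or M2p[pIL-4], Memory loops were M2[IL-4] loops matched after washout and absent before treatment, and Primed loops were found after washout alone. Near the 5 genes, 33 of the 246 M2[IL-4] loops were Memory loops (13.4%) and 25 were Transient (10.2%), against 6.32% and 7.23% of the whole M2[IL-4] list. Primed loops numbered 16, or 7.08% of the M2p[pIL-4] loops against 8.35% of that list. Egr2 and Myc held most of the Memory loops, 18 and 11. At Egr2 this was 22.2% of its M2[IL-4] loops, with 4 Transient and 0 Primed loops. Myc had loops of every class, 15 Transient, 11 Memory and 8 Primed. Bhlhe40 had 4, 3 and 4, Pparg 0, 1 and 2, and Rxra 2, 0 and 2. Most of the M0[CTR] loops near the genes, 137 or 86.2%, were matched in both M2[IL-4] and M2p[pIL-4], the same share as in the whole list (86.2%), while 6 were in M0[CTR] alone of the 3 lists (3.77% against 5.86%).

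The classes used 3 lists, and the IFNG lists were then looked up beside them. Of the 33 Memory loops, 31 had a match in pIL-4 + IFNG and 7 in IFNG, whereas of all 3684 Memory loops 66.4% had a match in pIL-4 + IFNG and 53.7% in IFNG. All 18 Memory loops of Egr2 were matched in pIL-4 + IFNG and 3 of them in IFNG. For Myc these were 9 and 2 of 11. Neighbouring loops can find the same match within 25 kb, so these loops are not independent counts. Merging touching bin pairs left 24 of the 81 loops near Egr2 in M2[IL-4]. Of the 16 Primed loops, 5 were matched in pIL-4 + IFNG and 3 in IFNG, against 31.2% and 22.9% of all Primed loops. Of the 25 Transient loops, 5 were matched in each, against 28.6% (pIL-4 + IFNG) and 20.3% (IFNG) of all Transient loops. The strongest Memory loop near Myc, relative to span, joined the bin after the TSS bin to the Pvt1 bin at 80 kb with 72 contacts in M2[IL-4] (56.3 to 90.7), and its match in M2p[pIL-4] lay within 25 kb but not in the same bins. The strongest Primed loop near any of the 5 genes, relative to span, joined the same Myc bin to the Pvt1 bin at 150 kb, with 39 contacts in M2p[pIL-4] (27.7 to 53.3). A count of classes moved with the matching distance: within 50 kb the Memory loops numbered 20 and the Transient 9, and in the same bins they numbered 43 and 130.

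Other genes of the IL-4 transcription factor network were counted from a list of 30, of which 24 had a mean of at least 5 loops. In M2[IL-4] against M0[CTR], 2 of the 24 had at least 1.5-fold more loops and 0 at least 1.5-fold fewer. Of all genes 8.92% and 7.82% did, so the list stood near the background. Its median log2 ratio was 0.01, against -0.02 for all genes and 0.50 for the 5 members. Members and list were chosen with earlier results of these data known, so this contrast is a description. The 2 genes that passed were Klf4 and Mnt. Klf4, an IL-4-induced zinc finger factor, had 66 loops before and 116 after IL-4. Mnt, which competes with MYC for MAX, had 6 and 11. The counting interval of the ratio was 1.18 to 2.21 for Klf4 and 0.57 to 5.54 for Mnt. Upstream of them, Stat6 had 46, 54, 55, 49 and 52 loops in the order of the lists, and Il4ra, the receptor chain for IL-4, had 32, 27, 43, 36 and 42. The relatives of the members were not among those that passed: Egr1 had 17 and 24 loops in M0[CTR] and M2[IL-4], Egr3 52 and 46, Rxrb 60 and 65, Ppard 41 and 36, and Bhlhe41 119 and 111. In the other 5 pairs of lists, 1 or 2 of the 24 passed upwards and 0 to 3 downwards, where 7.24% to 10.2% of all genes passed upwards and 4.91% to 8.49% downwards, and nothing about the list is read from these counts.

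The pattern of each member over the 5 lists was also set beside those of all other genes with a mean of at least 5 loops, as the Euclidean distance between centred log2 loop numbers over the lists. The nearest gene over 1 Mb away was Got1 for Egr2 (distance 0.03, with 8, 14, 11, 8 and 13 loops), Ndufc1 for Pparg (0.02, with 25, 31, 43, 34 and 35), Rin2 for Myc (0.07, with 12, 23, 18, 14 and 17), Rundc3a for Bhlhe40 (0.07, with 29, 43, 44, 30 and 36) and Cxcl15 for Rxra (0.03, with 16, 20, 18, 10 and 20). This likeness over 5 lists is a description among 12249 genes, and none of these genes was in the network list.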

How the data were processed

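Hi-C was measured in 10 samples, 2 replicates in each of 5 groups assigned from the sample titles. The deposited files were loop lists, and as each of the 5 groups had a single list its replicates seem to have been pooled; the depth of each sample is not known from them. Each line gave 2 bins of 10 kb and, as deposited by the authors, a contact count in whole numbers. The median count was 32 and the lowest 5 in every list. Whether depth was matched between groups before deposit is not known, and the counting intervals take the counts as raw. The lists held 2174945 to 2787117 contacts, which is the called part of the libraries. Per the authors' methods, reads were processed with nf-core/hic (HiC-Pro, bowtie2, mm10), maps were balanced and loops were called with HICCUPS in Juicer at 25 kb; the submitters' processing notes also name FastQC and HOMER. The caller and threshold behind these 10 kb lists are not given in the sources used here. A bin pair absent from a list has no count. No loop ran past a chromosome end of GRCm38.

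Genes and TSSs came from GENCODE M21. Members and gene lists were chosen with earlier results of these data known. A gene was called when its loop number, with a pseudocount of 1 and scaled by list length, differed at least 1.5-fold. The strength of a loop was its count divided by the median for loops of equal span in that list. Intervals are 95%, exact Poisson for a count and Clopper-Pearson for a ratio, and cover counting error alone. With 1 list per group no test was made. Named genes were the 5 members and the called genes of a network list, with genes at named anchors. Named bin pairs were taken, per member, from the 3 strongest and the strongest in all 5 lists. Others came from the strongest of each class and up to 10 of the TSS bin. Egr2 pairs of the 3 IL-4-exposed lists, other network genes and the downstream stretch were chosen after their values were seen. Counting was tested on simulated data. Alternatives were windows of 25, 50 and 200 kb, all transcript starts, other scalings, equal list lengths, merged or adjacent bin pairs, at least 20 contacts, a pseudocount of 0.5, pairs called in both lists, other matching distances and wider TSS bins. Promoter sequences came from RefSeq (GRCm38.p6), and 3 of the 5 members matched. The scripts ran in Python 3.11.15 with networkx 3.6.1, matplotlib 3.10.9, scipy 1.17.1, pandas 2.3.3 and numpy 2.4.6.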

Additional observations from a re-analysis of the deposited data

How the results depend on the processing

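No paired analysis was possible because the 2 replicates of a group share a single loop list, and no replicate could be left out for the same reason. The summed ratio of M2[IL-4] to M0[CTR] over the 5 genes was 1.31 to 1.55 under all alternatives run, in which the pseudocount has no part, and that of M2p[pIL-4] to M0[CTR], 1.12, was 1.42 with no scaling by list length. The single called value that changed sign was that of Rxra in IFNG against M0[CTR], from a log2 ratio of -0.65 to 0.37 when touching bin pairs were merged. The cause was not tested. Class counts followed the matching distance. With loops matched in the same bins there were 130 Transient, 120 Primed, 72 stably repressed (in M0[CTR] alone), 14 transiently repressed (in M0[CTR] and M2p[pIL-4]), 49 shared and 24 lost after washout (in M0[CTR] and M2[IL-4]). Within 50 kb these were 9 Transient, 20 Memory, 3 Primed, 0 stably repressed, 4 transiently repressed and 3 lost after washout. A longer distance leaves fewer loops without a match by construction. With the bins beside the TSS bin included, loops at the starts of the 5 genes numbered 61, 87, 76, 65 and 78 in the order of the lists, against 28, 35, 33, 32 and 35 for the TSS bin alone, as more bins are counted. Contacts at shared bin pairs near the 5 genes were 0.949 to 1.05 times M0[CTR], and 0.968 to 1.08 times under both alternatives. Low counts, with medians of 10 to 12 contacts at Myc loops, limit any comparison of single loops.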
